A study of Homo sapiens with 6 samples.

Results

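FGF11, FGF12, FGF13 and FGF14 form the fibroblast growth factor homologous factors, a branch of the FGF family whose proteins stay inside the cell. All 4 genes were on the array, with 1 probe set each among 1259 probe sets, of which 1043 carried 1 gene symbol and covered 927 genes. Many of these genes encode glycan enzymes, lectins, proteoglycans, cytokines, growth factors and ribosomal proteins. Ranks and shares of probe sets given below are therefore not those among all human genes. The members were chosen by gene family, through the RefSeq transcript in each probe set name, and were picked on this grouping with their treated and untreated array values already known. Their changes with treatment are therefore given as a description without p-values. Whether a member is among the array-wide calls is stated once, beside the share of all probe sets called, and is no independent test of it. Total RNA was measured on 6 arrays from HCT-15 cells, a human line established from a colon cancer. Of these, 3 were treated with 5-aza-2'-deoxycytidine (decitabine), which replaces cytosine in new DNA and traps DNA methyltransferases so that methylation is lost as cells divide, and 3 were untreated. No transgene, knockout or second agent is named for either group, and both come from the same line. The sources used here give neither dose nor duration.

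Most FGFs are secreted, bind heparan sulfate and activate receptor tyrosine kinases of the FGFR family. The homologous factors share the FGF core fold but lack a classical secretion signal. They are best known from neurons and heart muscle, where they bind the cytoplasmic tail of voltage-gated sodium channels and alter how the channels inactivate. They are not known as characteristic genes of colon epithelium.

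5-aza-2'-deoxycytidine acts on DNA methylation, which in human DNA lies mostly at CG dinucleotides, so the sequence before the start of each gene is shown first. Each is the 250 bases upstream of the outermost annotated start in RefSeq (GRCh38.p14), 5′ to 3′ on the strand of the gene, with every CG dinucleotide in capitals. FGF11 lies at chr17:7438048-7438297 on the plus strand, FGF12 at chr3:192727542-192727791, FGF13 at chrX:139205024-139205273 and FGF14 at chr13:102402444-102402693, these 3 on the minus strand.
FGF11: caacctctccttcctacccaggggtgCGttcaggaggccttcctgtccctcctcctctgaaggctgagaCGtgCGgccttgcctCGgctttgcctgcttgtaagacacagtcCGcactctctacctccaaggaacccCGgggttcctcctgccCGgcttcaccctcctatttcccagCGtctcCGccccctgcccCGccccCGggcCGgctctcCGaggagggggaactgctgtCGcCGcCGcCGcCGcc
FGF12: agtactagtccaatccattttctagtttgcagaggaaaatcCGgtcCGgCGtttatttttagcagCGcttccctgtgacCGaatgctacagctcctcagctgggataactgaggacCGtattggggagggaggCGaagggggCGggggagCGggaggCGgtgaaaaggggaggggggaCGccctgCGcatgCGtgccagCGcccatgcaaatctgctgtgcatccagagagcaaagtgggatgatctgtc
FGF13: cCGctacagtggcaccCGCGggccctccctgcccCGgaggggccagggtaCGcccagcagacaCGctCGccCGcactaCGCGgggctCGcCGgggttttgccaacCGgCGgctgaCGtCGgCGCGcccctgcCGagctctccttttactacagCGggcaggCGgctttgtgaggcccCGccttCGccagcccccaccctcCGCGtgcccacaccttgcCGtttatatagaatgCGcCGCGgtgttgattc
FGF14: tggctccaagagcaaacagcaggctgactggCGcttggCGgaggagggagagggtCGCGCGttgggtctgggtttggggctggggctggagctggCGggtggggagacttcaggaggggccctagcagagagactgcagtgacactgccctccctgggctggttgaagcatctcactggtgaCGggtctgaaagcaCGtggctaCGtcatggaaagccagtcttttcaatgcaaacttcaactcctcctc

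These windows held 18 CG dinucleotides for FGF11, 14 for FGF12, 29 for FGF13 and 9 for FGF14. The motif searched was CG, which reads the same on both strands. Over 35116 windows of the same length in the RefSeq table the median was 11, and 93.9% held at least 1 CG. As many as in FGF13 or more were found in 14.1% of windows, against 36.8% for FGF11, 44.8% for FGF12 and 54.1% for FGF14. The table gives 11 starts for the 4 genes, and the windows of 1 gene differed widely. An inner start of FGF13 and one of FGF14 had 0 CG dinucleotides, while another inner start of FGF14 had 41. The inner start of FGF12 had 28, and those of FGF11 had 5 and 16. An order of the genes by CG count therefore depends on which start is taken. A relation between these counts and the changes was not tested. Which start the array's probe sets report on is not stated in the labels, and DNA methylation was not measured.

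**Figure D1:**
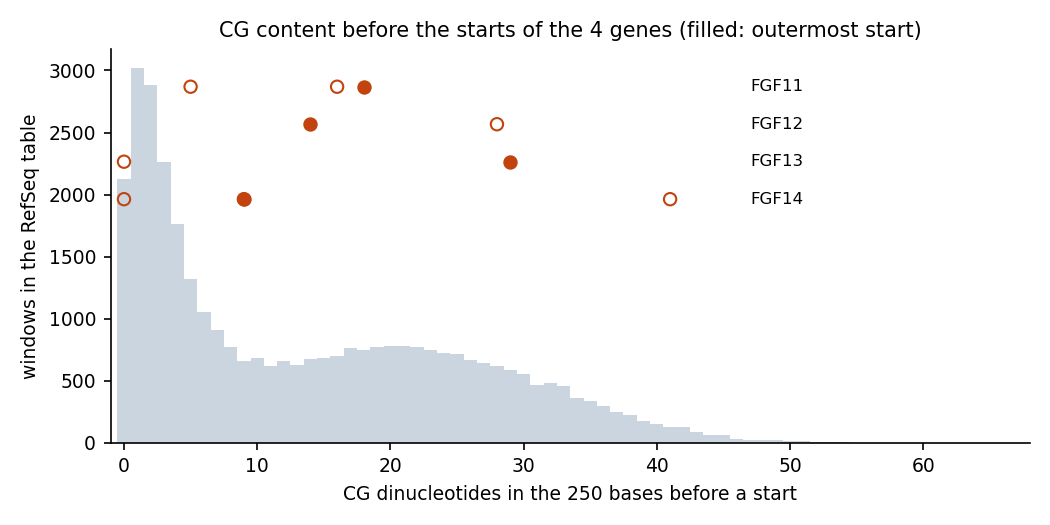
CG dinucleotides (x axis) in the 250 bases before every start of the RefSeq table (grey bars, number of windows on the y axis), with the starts of each homologous factor gene as points on a row of its own (filled for the outermost start, open for inner starts, height without scale). The outermost starts hold 18 (FGF11), 14 (FGF12), 29 (FGF13) and 9 (FGF14), and the inner starts reach from 0 to 41. For FGF14 an inner start with 9 lies under the filled point.

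FGF11 and FGF13 had values about 1 log2 unit higher in treated cells, a difference of close to 2-fold for each, while FGF12 and FGF14 differed by little. All values are log2 probe set values after RMA, the authors' background correction, normalization and summary of probes. Errors of a group are SDs over its 3 arrays, and errors of a change are standard errors from limma's fit to all probe sets. Because bulk RNA was measured, more cells that express a gene and more RNA per cell cannot be told apart. The labels do not say whether the replicates were separate cultures, so errors and p-values cover only the spread between these arrays, and that spread may be technical.

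FGF13, known as FHF2, is a sodium channel partner that in mouse neurons also binds microtubules. It had 4.31, 3.99 and 4.01 in the 3 treated arrays, against 2.97, 2.72 and 3.31 in the 3 untreated arrays. The lowest treated value lay 0.685 above the highest untreated value, and the untreated arrays were more spread than the treated ones. The means were 4.10 ± 0.18 in treated and 3.00 ± 0.29 in untreated cells (SD, n = 3 each), a log2 change of 1.11 ± 0.14 SE or 2.15-fold. This was the 35th highest change of the array, and 2.78% of probe sets had a change at least as high.

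The FGF13 signal was dim. In treated cells 20.7% of probe sets had a group mean at or below that of FGF13, against 5.64% in untreated cells, which places the signal and not the amount of transcript, since probe sets differ in how well they bind. RMA compresses differences between dim probe sets, so a fold change from such a level is uncertain. The ending of this probe set name marks it, in Affymetrix naming, as one that may bind transcripts of more than one gene. The probe sets given below for FGFR1, FGFR2, DLL3 and FST, among others, have the same ending.

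FGF11, or FHF3, is the least studied of the 4. It had 6.16, 6.15 and 6.42 in treated arrays, against 5.22, 5.24 and 5.37 in untreated arrays. Within each group the array of replicate 3 was the highest, and the groups were separated by 0.783. The means were 6.24 ± 0.16 in treated and 5.28 ± 0.08 in untreated cells (SD, n = 3 each), a log2 change of 0.97 ± 0.09 SE or 1.95-fold. In treated cells 55.8% of probe sets had a mean at or below that of FGF11, against 40.4% in untreated cells, so its signal was near the middle of the array. Its change ranked 53rd, with 4.21% of probe sets at least as high.

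FGF12, or FHF1, modulates sodium channels in neurons and heart muscle. It had 3.85, 3.86 and 4.23 in treated arrays, against 3.70, 3.69 and 3.83 in untreated arrays. The lowest treated array stood only 0.025 above the highest untreated array, and treated replicate 3 stood apart from the other treated arrays. The means were 3.98 ± 0.22 in treated and 3.74 ± 0.08 in untreated cells (SD, n = 3 each), and the log2 change was 0.24 ± 0.11 SE (1.18-fold). The change ranked 225th, with 17.9% of probe sets at least as high. Without treated replicate 3 the change was 0.12 ± 0.08 SE.

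FGF14, or FHF4, is required for normal firing of cerebellar neurons and is mutated in an inherited ataxia. It had 3.79, 3.75 and 3.89 in treated arrays, against 3.74, 3.73 and 3.62 in untreated arrays. The groups were parted by 0.008, far less than the spread within either. The means were 3.81 ± 0.07 in treated and 3.70 ± 0.07 in untreated cells (SD, n = 3 each), and the log2 change was 0.11 ± 0.07 SE (1.08-fold). That change ranked 337th, with 26.8% of probe sets at least as high. After quantile normalization the change was 0.01 ± 0.08 SE. The signals of FGF12 and FGF14 were also dim, with 19.1% and 16.8% of probe sets at or below them in treated cells, against 17.4% and 16.8% in untreated cells.

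**Figure D2:**
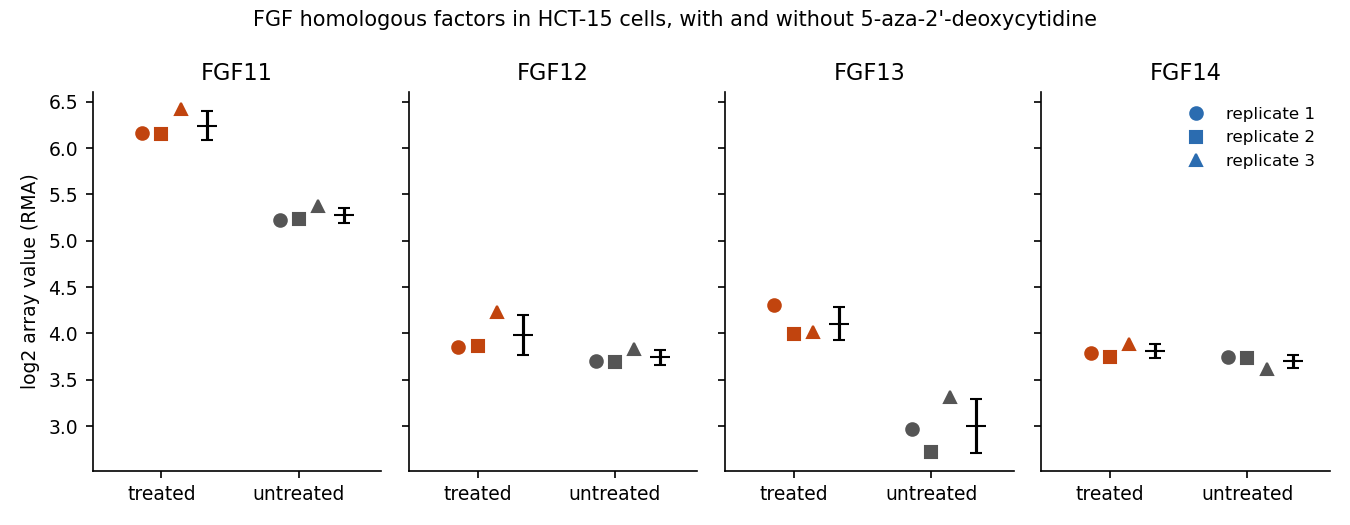
Log2 array values (y axis) of the 4 homologous factor genes in treated (left, red) and untreated (right, grey) cells, one symbol per replicate number, with the mean and SD of each group in black (n = 3). For FGF11 and FGF13 the groups lie 0.783 and 0.685 apart, while for FGF12 and FGF14 the lowest treated value is within 0.025 of the highest untreated one.

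Across the 4 genes, the mean was higher in treated cells for each, as it was for 47.2% of all probe sets. The median log2 change over the 4 genes was 0.60, against -0.01 over all probe sets. No member lies near that median, since 2 changes were higher (0.97 and 1.11) and 2 lower (0.11 and 0.24). In limma's fit with Benjamini-Hochberg adjustment over all 1259 probe sets, 34.8% of probe sets passed an adjusted p under 0.05, 18.0% as rises and 16.8% as falls. FGF11 and FGF13 were among the rises and FGF12 and FGF14 were not called, so 2 of 4 met this rule. Rises called at 1.5-fold or more made up 7.94% of the array, and the same 2 genes were among them. All treated values lay above all untreated values in each of the 4 genes and in 22.7% of all probe sets. After quantile normalization, or after centring each array on its median, FGF12 and FGF14 overlapped between the groups and 2 of 4 genes stayed apart, against 20.9% and 18.3% of probe sets. Since the genes were proposed with these values known, the counts are a description only. The array-wide calls numbered 227 rises and 211 falls, against 197 and 311 after median centring.

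**Figure D3:**
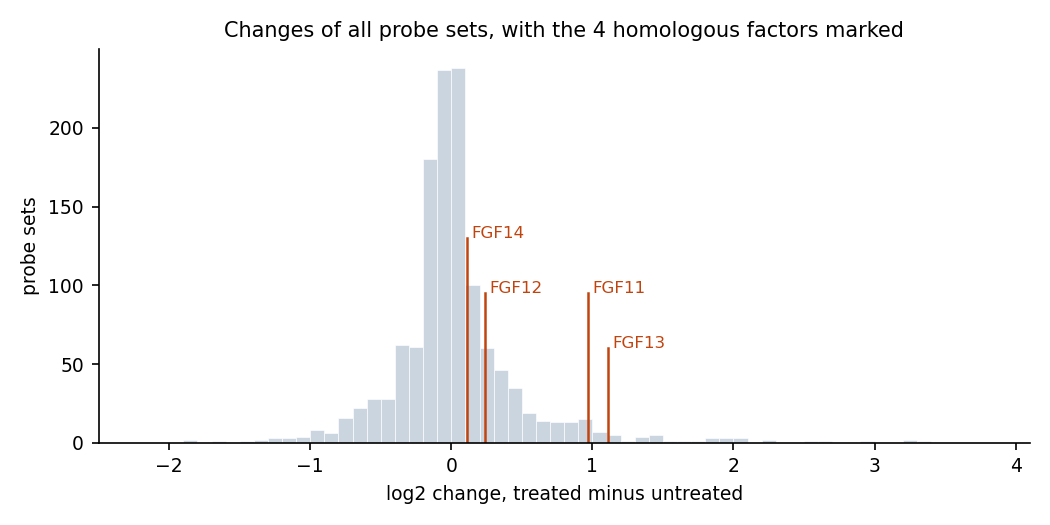
Histogram of the log2 change, treated minus untreated, of all 1259 probe sets (x axis, number of probe sets on the y axis), with a red line for each homologous factor gene (line heights without scale). FGF14 at 0.11 and FGF12 at 0.24 lie above the median of -0.01, with 26.8% and 17.9% of probe sets at least as high. FGF11 at 0.97 and FGF13 at 1.11 lie further out in the upper tail.

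The secreted relatives of these genes were measured on the same arrays. Of 15 paracrine FGFs, which signal to nearby cells through FGF receptors, 0 were called as rises in limma's test, also at an unadjusted p under 0.05, and FGF18 was called as a fall. Their median log2 change was -0.03, with a range of -0.27 to 0.11, and the mean was higher in treated cells for 5 of 15. FGF18 averaged 6.18 ± 0.08 in treated and 6.45 ± 0.08 in untreated cells (SD, n = 3 each; log2 change -0.27 ± 0.08 SE, adjusted p = 0.0158 in limma's test). That call was lost without treated replicate 1 (adjusted p = 0.0505) and without untreated replicate 2 (0.0674), in a range of 0.00746 to 0.0674 over the alternatives. FGF10, which was not called (3.25 ± 0.05 in treated and 3.44 ± 0.14 in untreated cells, adjusted p = 0.12), passed after quantile normalization (0.0456) and median centring (0.0319), in a range up to 0.345.

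The endocrine FGFs act at a distance with klotho co-receptors. Of the 3 measured, FGF19, an intestinal hormone that restrains bile acid synthesis, rose. It averaged 6.17 ± 0.05 in treated and 5.14 ± 0.04 in untreated cells (log2 change 1.02 ± 0.07 SE, adjusted p = 1.21e-06 in limma's test, 2.03-fold). FGF21 (5.12 ± 0.03 in treated and 5.02 ± 0.06 in untreated cells) and FGF23 (3.07 ± 0.21 in treated and 3.13 ± 0.05 in untreated cells) were not called, with adjusted p = 0.304 and 0.697. Over the 18 other FGF ligands together the median log2 change was -0.02, and the 16 that were not called ranged from -0.19 to 0.11.

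Of the 4 measured FGF receptors, which the secreted FGFs activate, 2 rose and 1 fell. FGFR3 averaged 9.52 ± 0.14 in treated and 8.54 ± 0.17 in untreated cells (log2 change 0.98 ± 0.10 SE, adjusted p = 2.7e-05 in limma's test), and FGFR1 averaged 5.74 ± 0.10 in treated and 5.37 ± 0.11 in untreated cells (0.37 ± 0.08 SE, adjusted p = 0.00516). FGFR2 averaged 6.09 ± 0.08 in treated and 6.62 ± 0.12 in untreated cells (-0.54 ± 0.08 SE, adjusted p = 0.000452). FGFR4 averaged 7.60 ± 0.03 in treated and 7.46 ± 0.09 in untreated cells and was not called (adjusted p = 0.161). Of 14 listed binding partners of the homologous factors, the sodium channel subunits and the scaffold protein gene MAPK8IP2, 0 were matched among the probe sets, and likewise 0 of 16 genes of FGF receptor signalling. Their levels are therefore not analysed here.

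**Figure D4:**
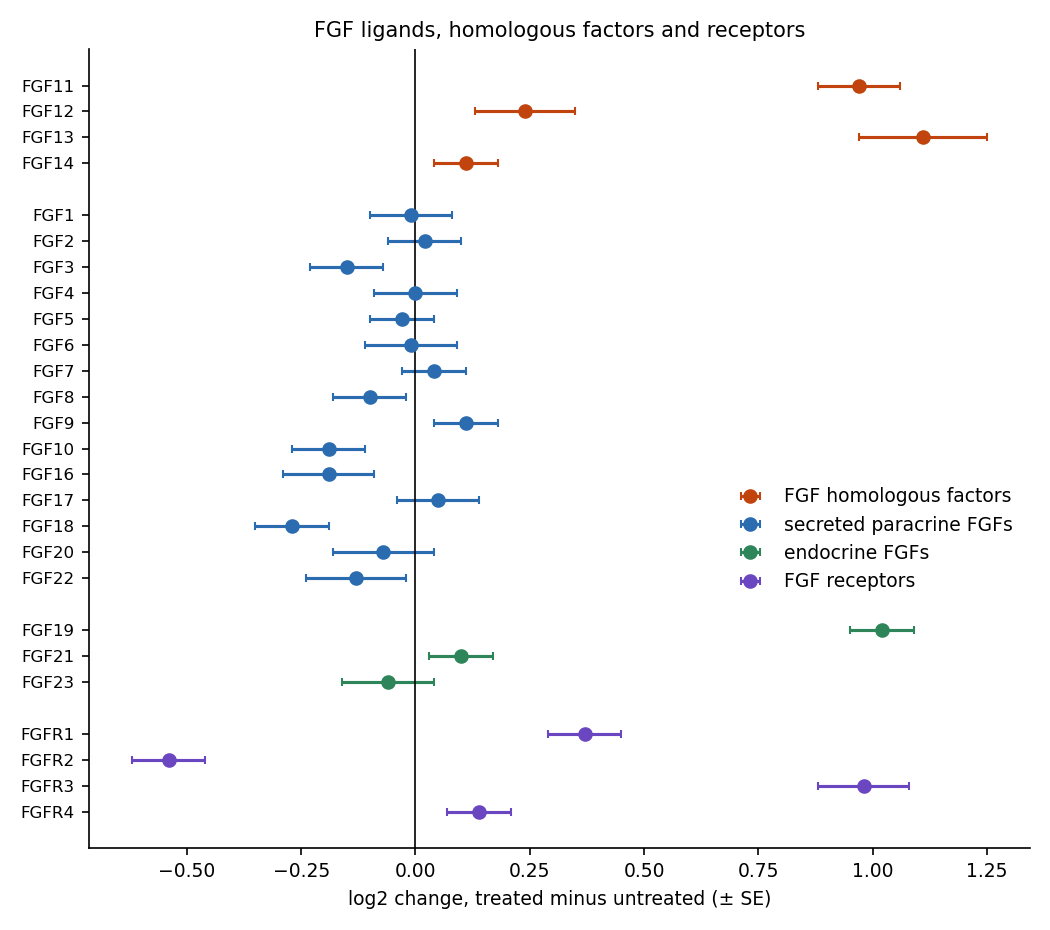
Log2 change, treated minus untreated (x axis, points with standard errors of limma's fit, 3 arrays per group), of each measured homologous factor, secreted paracrine FGF, endocrine FGF and FGF receptor gene (rows). FGF11, FGF13, FGF19 and FGFR3 lie near 1, between 0.97 and 1.11, while the 15 paracrine FGFs lie between -0.27 and 0.11.

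The genes with the most similar profiles were sought for FGF11 and FGF13, the members that differed by 1.5-fold or more. The measure was the root mean square difference between log2 profiles over the 6 arrays, after subtracting each probe set's mean, over the 927 named genes. With 2 groups of arrays it mostly reflects the size of the treatment difference. For FGF11 the nearest were SRGN, the granule proteoglycan serglycin (0.082), FGF19 (0.090) and COL9A2, a chain of cartilage collagen IX (0.090). SRGN averaged 4.17 ± 0.09 in treated and 3.17 ± 0.04 in untreated cells, and COL9A2 averaged 6.46 ± 0.10 in treated and 5.43 ± 0.07 in untreated cells. A secreted FGF thus stood among the nearest profiles of FGF11, while FGF13 came 45th at 0.222, FGF12 143rd and FGF14 232nd.

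For FGF13 the nearest were LY75, an endocytic receptor of dendritic cells (0.164), DLL3, an inhibitory Notch ligand (0.178), and FST, the activin-binding protein follistatin (0.182). These distances were larger than those of FGF11, and the untreated arrays of FGF13 were also more spread. LY75 averaged 4.89 ± 0.21 in treated and 3.56 ± 0.23 in untreated cells. DLL3 averaged 7.82 ± 0.08 in treated and 6.90 ± 0.17 in untreated cells. FST averaged 6.61 ± 0.04 in treated and 5.61 ± 0.04 in untreated cells. These are the brightest probe sets of DLL3 and FST. Their other probe sets had log2 changes of 0.36 and 0.63 for DLL3, and 0.19 and 1.04 for FST. FGF11 ranked 14th for FGF13.

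**Figure D5:**
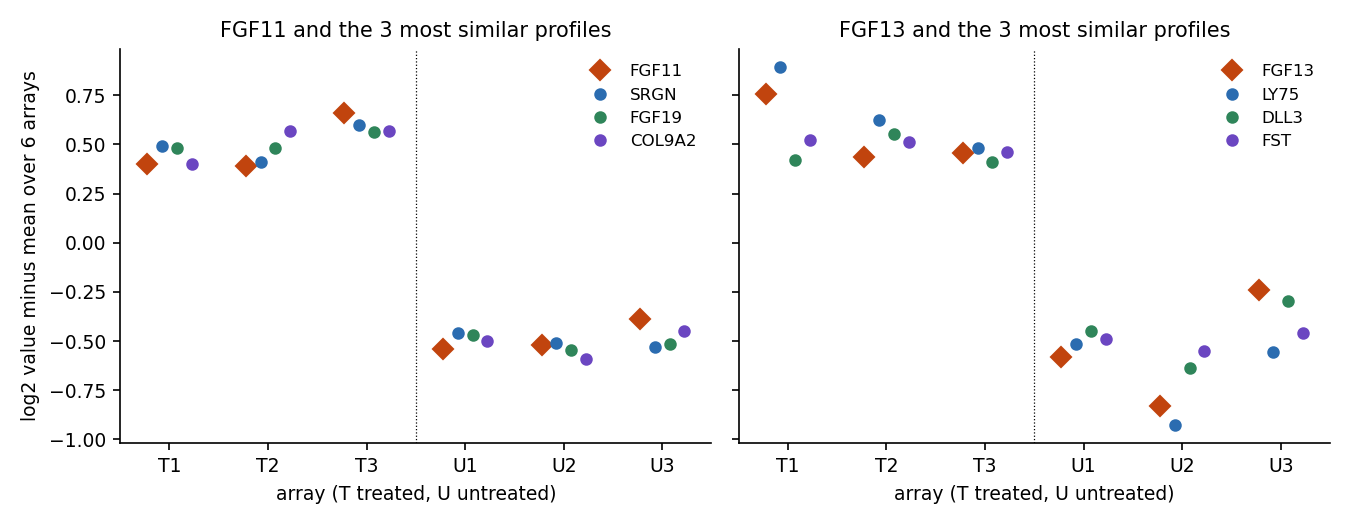
Log2 value minus the mean over 6 arrays (y axis) in the 3 treated (T) and 3 untreated (U) arrays for FGF11 (left panel) and FGF13 (right panel), drawn as diamonds, and for the 3 genes with the smallest root mean square difference from each, drawn as circles. The 3 genes stay within 0.082 to 0.090 of FGF11 and within 0.164 to 0.182 of FGF13 on this measure.

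Within a group, array pairs correlated at 0.9974 to 0.9987 over all probe sets, and across groups at 0.9817 to 0.9844. Untreated replicate 3 is named as treated in its title, against its source name and treatment entry, by which it was grouped. The word control stands in every title, those of treated arrays included, and separated no groups. Without that array the log2 changes were 1.01 ± 0.10 SE for FGF11, 0.29 ± 0.12 for FGF12, 1.26 ± 0.12 for FGF13 and 0.08 ± 0.08 for FGF14. Of 13 colon epithelial markers 4 were measured, of which 1 rose and 2 fell in limma's test. MUC13 (8.93 ± 0.06 in treated and 7.97 ± 0.12 in untreated cells, adjusted p = 6.15e-06) was the rise. LGALS4 (9.03 ± 0.09 in treated and 9.54 ± 0.04 in untreated cells, adjusted p = 0.000291) and FUT3 (5.88 ± 0.24 in treated and 6.39 ± 0.11 in untreated cells, adjusted p = 0.00485) were the falls. MUC2 averaged 5.67 ± 0.02 in treated and 5.57 ± 0.16 in untreated cells and was not called (adjusted p = 0.425). Of 14 genes listed as neuronal markers 4 were measured (NCAM1, NCAN, BCAN and ST8SIA3) and 0 were called in limma's test, also at an unadjusted p under 0.05. RBFOX3, TUBB3, SYP, MAP2 and NEFL of that list were not measured, so the 4 genes do not settle neuronal identity. The mean log2 value of the 4 was 4.14 to 4.27 in treated and 4.26 to 4.37 in untreated arrays. Of 5 measured leukocyte markers 2 rose and 1 fell, with list means of 4.91 to 5.02 in treated and 4.78 to 4.91 in untreated arrays, and of 5 stromal markers 1 rose and 1 fell, with 3.60 to 3.71 in treated and 3.58 to 3.79 in untreated arrays. No deposited value is 0, so absence of a marker cannot be read from these values, and the part of the epithelial, leukocyte and stromal markers in the results was not tested.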

How the data were processed

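Per the labels' protocols, biotinylated cRNA was made from HCT-15 total RNA by the Affymetrix method. The authors' deposited table holds log2 values in 1259 rows, with 1 column per array. RMA is named per the submitters' processing notes, while the sources used here give no settings, platform or genome build. The log2 scale was read from the values (2.13 to 13.67, array medians 5.81 to 5.92). Columns of values left unused numbered 0.

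Probe sets were named by RefSeq transcript without version (GRCh38.p14 table, names only), and 216 stayed unnamed. A gene with several was represented by its brightest probe set on average. In R 4.3.3 with limma 3.58.1, lmFit and eBayes were run on all probe sets, two-sided, with Benjamini-Hochberg adjustment and a threshold of 0.05. No dim probe set was left out. The limma step was checked on simulated arrays with independent normal noise around fitted means. Such arrays hold no normalization step, compression of dim signals or correlation between arrays, so the check does not cover these. Genes named are all members and the 3 nearest profiles of members that differed by 1.5-fold. Other FGF and FGFR genes are named if called, if their call changed with the processing, or to describe a list. Some genes of the marker and binding partner lists are named as well. Members and lists were chosen with earlier results of these data known. The number of arrays limits the precision. Upstream sequences are from RefSeq, and all 4 genes matched.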

Additional observations from a re-analysis of the deposited data

How the results depend on the processing

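The alternatives were quantile normalization, median centring, leaving out the dimmest probe sets (839 stayed), an intensity trend, the replicate number as a block, every probe set per gene, and each array left out in turn. The log2 change of FGF14 was 0.01 after quantile normalization, and the other 35 recomputed member changes moved by less than the spread between replicates. That spread was 0.16 for FGF12, whose change of 0.24 became 0.13 ± 0.09 SE after quantile normalization and 0.18 after median centring. FGF14 went from 0.11 to 0.05 after median centring. The smaller changes of FGF12 and FGF14 thus depend on the normalization. With 1 array left out the changes lay at 0.88 to 1.01 for FGF11, 0.12 to 0.31 for FGF12, 0.97 to 1.26 for FGF13 and 0.07 to 0.14 for FGF14. FGF12, FGF13 and FGF14 were not among the probe sets left by the filter on dim signals. Falls called among the other FGF and FGFR genes numbered 1 to 2 with 1 array left out and 3 after quantile normalization or median centring, while rises numbered 3 in all of these alternatives. Array-wide there were 198 to 225 rises and 171 to 215 falls with 1 array left out. The replicate numbers were not used as pairs in the main fit. Deviations of same-numbered arrays correlated at -0.274, 0.037 and -0.111, which with 3 arrays per group cannot exclude a pairing. With the number as a block, standard errors were 0.07 (FGF11), 0.08 (FGF12), 0.13 (FGF13) and 0.08 (FGF14). Without it they were 0.09, 0.11, 0.14 and 0.07. With the replicate block 209 rises and 185 falls were called. Dim signals limit FGF12, FGF13 and FGF14, since no detection calls were used here.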
